A study of Mus musculus with 4 samples.

Results

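Cytosolic ribosomal protein genes were followed across 4 microarrays of mouse bone marrow-derived macrophages. A gene was taken as a member where at least 1 probe set was annotated to it alone and its symbol was Rpl or Rps followed by a digit, Rplp0, Rplp1, Rplp2 or Rpsa. Kinase genes (Rps6k), pseudogene symbols in -ps and the paralogs Rpl39l, Rpl22l1, Rpl7l1 and Rps27l were left out. The rule found 46 genes of 18193 measured, read by 98 of 45101 probe sets, and each gene was given by its brightest probe set. Of these, 23 carry Rpl symbols and 23 Rps symbols. The rule also took in Rpl3l, a muscle paralog of Rpl3, Rps4l, which RefSeq lists as a transcribed pseudogene, and Rps19bp1, whose product binds a small-subunit protein and is not a subunit itself.

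All cells were grown from C57BL/6 bone marrow for 5 days with 10% L929 supernatant, which supplies the growth factor M-CSF. The 4 groups were wild-type (WT) cells left untreated, WT cells given 2 ng/ml lipopolysaccharide (LPS, a bacterial ligand of the receptor TLR4) for 3 h, untreated cells lacking Hes1 together with Hey1 (double knockout, DKO), and DKO cells given the same LPS. Wherever 4 values follow one another they are in this order. Hes1 and Hey1 encode transcriptional repressors of the Notch pathway, and the study asked which inflammatory genes they regulate. How the alleles were made, in which cells they were deleted, and how many mice and cultures stand behind an array are not given in the sources used here. Each group had 1 array, so no difference below has a replicate check, no error or p-value is given, and the number of arrays limits the precision.

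The arrays were checked against their labels before the members were read. Hes1 read 45.4 and 26.7 units in WT cells and 2.14 and 5.80 in DKO cells, and Hey1 read 57.2 and 17.3 in WT cells and 9.17 and 10.2 in DKO cells (untreated, then LPS). Only the Hey1 value of untreated WT cells lay above 52.9 units, the median of all probe sets over the arrays, which served as the floor throughout. The sources used here do not say whether the deleted stretches cover these probe sets. Tnf, a cytokine gene induced by LPS, went from 122 to 14788 units in WT cells and from 119 to 18766 in DKO cells. Of 10 macrophage markers 9 lay above the floor on all arrays, with a summed level of 83464 to 130711 units. Of 8 neutrophil markers only S100a8 did, no measured B cell, NK cell, dendritic cell, mast cell or fibroblast marker lay above the floor on any array, and the sums of progenitor markers were 1848, 872, 1509 and 508 units in the same order. Of T cell and of erythroid markers 1 each lay above it on at least 1 array. In RNA from whole cultures, fewer cells of a type and less RNA per cell cannot be told apart.

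Ribosomal proteins assemble with ribosomal RNA into the 40S subunit, which decodes messenger RNA, and the 60S subunit, which forms the peptide bond. Their transcripts are among the most abundant in dividing and secreting cells, and most begin with a C followed by a run of pyrimidines, the 5′ terminal oligopyrimidine tract. Through this tract LARP1 and the kinase mTOR control their translation, so that ribosomal protein synthesis can change while the amount of transcript does not. Macrophages given LPS redirect translation within hours.

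RefSeq start sites (GRCm38.p6) were matched for 40 of the 46 members, with 47 windows running from 250 bases before to 50 bases after a start. A tract, here a C followed by at least 4 further C or T at the start base or within 5 bases of it, stood in 40.4% of member windows against 18.3% of all 32851 windows, and in 18 member genes. The following windows run 5′ to 3′ from 40 bases before the start to 20 bases from it, and capitals mark the tract and any CCGGAAG, the core letters bound by ETS-family factors, which read CTTCCGG on the other strand. Rps2 and Rps18 are shown as the bright members with the largest and smallest LPS difference in WT cells, Rps10 for its long tract and its CCGGAAG, Rplp2 as a stalk gene, and Rps6 and Rps27 as dim members whose values ran otherwise than those of the bright ones.
Rps2: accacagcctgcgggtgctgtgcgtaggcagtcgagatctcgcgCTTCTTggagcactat
Rps18: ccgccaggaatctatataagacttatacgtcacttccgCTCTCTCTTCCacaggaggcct
Rps10: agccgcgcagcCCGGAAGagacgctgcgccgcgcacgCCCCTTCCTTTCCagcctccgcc
Rplp2: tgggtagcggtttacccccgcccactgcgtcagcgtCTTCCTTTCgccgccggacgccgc
Rps6: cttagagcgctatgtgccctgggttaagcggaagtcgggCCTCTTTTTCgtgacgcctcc
Rps27: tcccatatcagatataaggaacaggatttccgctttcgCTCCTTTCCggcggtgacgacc
The windows lie at chr17:24720023-24720082 (plus strand) for Rps2, chr17:33955646-33955705 (minus) for Rps18, chr17:27635225-27635284 (minus) for Rps10, chr7:141447611-141447670 (plus) for Rplp2, chr4:86857348-86857407 (minus) for Rps6 and chr3:90213629-90213688 (minus) for Rps27. The tracts of Rps2, Rps18 and Rps10 are 6, 11 and 13 bases long.

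Other letters were counted on both strands of the full windows. CCGGAAG stood in 40.4% of member windows, 19 genes, against 8.86% of all windows. The pyrimidine runs CTTTC and CCTTTC, which overlap each other and the tract, stood in 83% and 42.6% against 57.3% and 23.8%. GGGCGG, the letters bound by Sp1-family factors, stood in 53.2% against 35.7%, and AAGATGGC, the letters bound by YY1, in 6.38% against 2.75%. TATAAA stood in 10.6% against 13.6%, and CACGTG, the E-box bound by Myc, in 10.6% against 7.15%. These are matches of letters and not measured sites.

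Members fell into separate classes of intensity. There were 34 with a mean of at least 10000 units over the 4 arrays (17 of each subunit), called bright here, 10 between the floor and that level, and 2 under the floor on all arrays. The dimmest bright member was Rps26, with a mean of 14120, and the brightest of the rest was Rpl37, with 2852. The brightest were Rps29 with a mean of 33521, Rpl38 with 30549, Rplp2 with 30219 and Rps28 with 28683. Intensity also depends on how well a probe set binds, so this orders probe sets and not transcripts. The members under the floor were Rpl3l, at 5.20, 3.85, 4.61 and 3.42 units, and Rps16, at 2.30, 2.67, 0.675 and 12.9. They have no difference below. Of these 12 members that were not bright, 9 are also named by probe sets that list several genes, so a dim value here is the value of 1 probe set and not of the gene.

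The bright members stood at nearly the same relation to one another on every array. Their median was 19511, 23450, 22321 and 22989 units. Their share of the summed intensity of all genes was 3.39%, 3.84%, 3.66% and 3.68% in that order. The untreated WT array was the lowest for 33 of the 34, and WT with LPS was the highest for 24. The exception was Rpl11, which with Rpl5 and 5S RNA forms a particle that binds MDM2, at 13903, 14720, 14016 and 13845 units. Other genes of at least 10000 units, of which there were 310, also read lowest on the untreated WT array in 68.1% of cases, against 19.1% of the 9981 genes above the floor on all arrays.

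**Figure D1:**
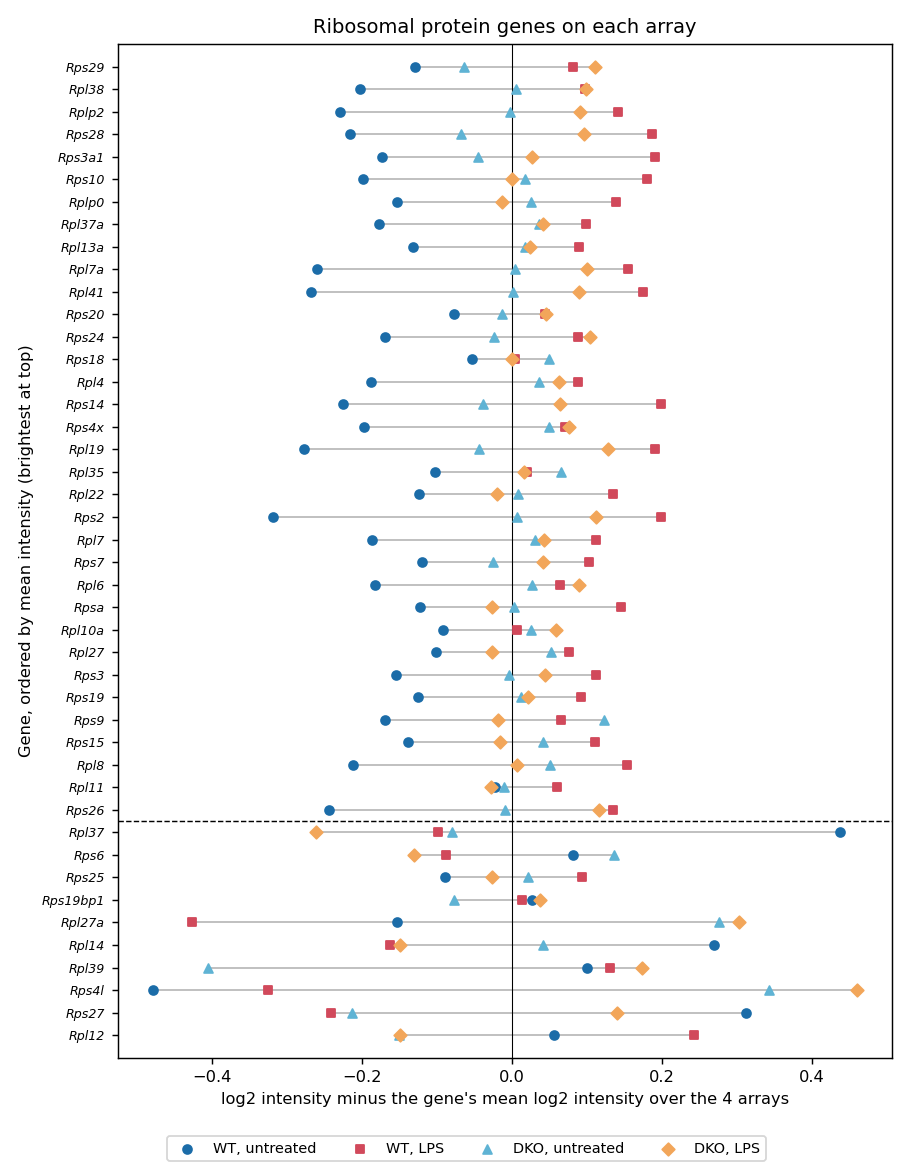
Log2 intensity of 44 ribosomal protein genes on each of the 4 arrays, centred on each gene's mean over the arrays and ordered by mean intensity, with grey lines from lowest to highest. Above the dashed line, at 10000 units, the untreated WT array (dark circles) lies lowest in 33 of 34 genes, and below it the 10 dimmer genes have no common order.

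In WT cells given LPS, the bright ribosomal protein genes read slightly higher than in untreated WT cells in the deposited values, as did other genes of like intensity. The median log2 difference of the 44 members above the floor was 0.25, with 19 members at least 1.2-fold higher and 4 at least 1.2-fold lower, where 18% of all 11489 genes above the floor were that much higher and 32.9% lower, with a median of -0.09. No member differed by 2-fold, against 3.36% of all genes higher and 3.41% lower. Read by their brightest probe set, all 34 bright members lay above 0, from 0.06 in Rps18 to 0.52 in Rps2. Their median was 0.27, with an SD of 0.11 over members. Of 40 further probe sets of members above the floor on all arrays, 16 had the opposite sign. Some of these were bright too, such as -0.29 in Rps20 at a mean of 21272 units and -0.26 in Rps24 at 19138. For Rps18, further probe sets at means of 16726 and 16721 units gave 0.27 and 0.24. The other 310 bright genes had a median of 0.23, with 44.5% at least 1.2-fold higher and 3.55% lower. The count of 19 became 37 with equal array medians, 2 after quantile normalization and 3 after cyclic loess. Of the other 310 bright genes, 240 were that much higher with equal medians and 49 after quantile normalization. With the probe set types that can bind several transcripts left out, 21 members were left with a median of 0.03, 6 of them at least 1.2-fold higher and 4 lower.

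Rps2, a small-subunit protein at the entry of the mRNA channel, read 16224, 23209, 20332 and 21870 units. Its untreated WT value was the only one under 20000, and the LPS difference in WT cells was 0.52. Rpl19, which lies near the exit of the peptide tunnel, read 17839, 24661, 20973 and 23628, for an LPS difference of 0.47 in WT cells. Rpl41, the smallest ribosomal protein, read 19594, 26635, 23611 and 25106, a WT difference of 0.44. Rps14, which lines the platform of the small subunit, read 19428, 26059, 22097 and 23732, and Rpl7a, a large-subunit protein, 20293, 27032, 24373 and 26037, with WT differences of 0.42 and 0.41. In each of these 5 the WT value with LPS was the highest and the untreated WT value the lowest.

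The stalk of the large subunit recruits elongation factors through the acidic proteins encoded by Rplp0, Rplp1 and Rplp2. Rplp0 read 23650, 28967, 26781 and 26073 units and Rplp2 25655, 33170, 30018 and 32036, for WT differences of 0.29 and 0.37. Rplp1 had no probe set of its own. Among the other roles, 4 of 8 proteins of the peptide exit tunnel and its rim were measured, with WT differences from 0.03 in Rpl39 to 0.47 in Rpl19. From genes mutated in Diamond-Blackfan anaemia, an inherited failure of red cell production, 9 were listed and 6 of these measured. Their WT differences ran from 0.08 in Rpl11 to 0.38 in Rps10 and Rps26. This range covers the chosen list only, which need not hold every gene of the disease. Fau, the precursor of the small-subunit protein eS30 and outside the naming rule, read 17978, 22841, 20892 and 21628, a difference of 0.35.

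The 4 members past the 1.2-fold threshold downward in this comparison were all dim. Rps27, a zinc-binding protein of the small subunit, read 187, 128, 130 and 166 units, a WT difference of -0.55. Rpl37, a large-subunit zinc-binding protein, read 3797, 2618, 2653 and 2340 (-0.54), and Rpl14 504, 374, 430 and 377 (-0.43). Rpl27a read 574, 475, 773 and 787 (-0.27). For Rps27, Rpl37 and Rpl14 the untreated WT array was the highest of the 4, the reverse of the bright members. Rps6, the substrate of S6 kinase, read 1757, 1562, 1824 and 1517 units, with LPS differences of -0.17 (WT) and -0.27 (DKO), so that both arrays with LPS lay under both untreated arrays.

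In DKO cells LPS left the bright members within a narrow range. The median over the 44 members was 0.03, with 2 at least 1.2-fold higher and 1 lower, where 19.1% of all 11240 genes were higher and 34.7% lower, with a median of -0.10. The 34 bright members lay between -0.14 and 0.17, 23 of them above 0, with a median of 0.03. The other 310 bright genes had a median of 0.05, with 18.7% at least 1.2-fold higher and 4.52% lower. No member reached 2-fold, which 4.66% of all genes did upward and 4.77% downward.

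Members with the highest DKO differences were Rpl39, Rps27, Rps29, Rpl19 and Rps28. Rpl39, a short protein inside the peptide tunnel, read 377, 385, 265 and 396 units, a DKO difference of 0.58 that came with a low untreated DKO value. Rps27 gave 0.35. Rps29 read 30580, 35401, 32004 and 36099 and Rps28 24573, 32463, 27219 and 30478, with DKO differences of 0.17 and 0.16, and Rpl19 gave 0.17. Further Rps29 probe sets at means of 25609 and 23521 units gave DKO differences of -0.01 and 0.14. The lowest were Rps6 at -0.27, Rpl14 at -0.19, Rpl37 at -0.18, Rps9 at -0.14 and Rpl27 at -0.08. Rps9, a small-subunit protein, read 13538, 15931, 16582 and 15028, highest in untreated DKO cells.

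The order of the bright members under LPS was partly alike in the genotypes. Across the 34 genes, the LPS difference in WT and that in DKO cells, which share no array, correlated with a Pearson coefficient of 0.50 and a Spearman coefficient of 0.50. Across the other 310 bright genes these were 0.96 and 0.76. Genes are not independent replicates, and the arrays share probe sets and scaling. Relative to the median bright member, WT differences ran from -0.21 in Rps18, -0.18 in Rpl11 and -0.17 in Rpl10a to 0.18 in Rpl41, 0.20 in Rpl19 and 0.25 in Rps2. In DKO cells they ran from -0.18 in Rps9 to 0.13 in Rpl19 and Rps29. Bright members with a tract at the RefSeq start (12 genes) had a median WT difference of 0.34, from 0.06 to 0.52, and those without (17 genes) one of 0.27, from 0.08 to 0.44. The ranges overlapped over nearly their whole length, and Rps18 and Rps10, with tracts of 11 and 13 bases, gave 0.06 and 0.38. Further Rps18 probe sets at means of 16726 and 16721 units gave 0.27 and 0.24, so its place at the low end rests on 1 probe set. The start used in these cells was not measured, so a gene without a match may still carry a tract.

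**Figure D2:**
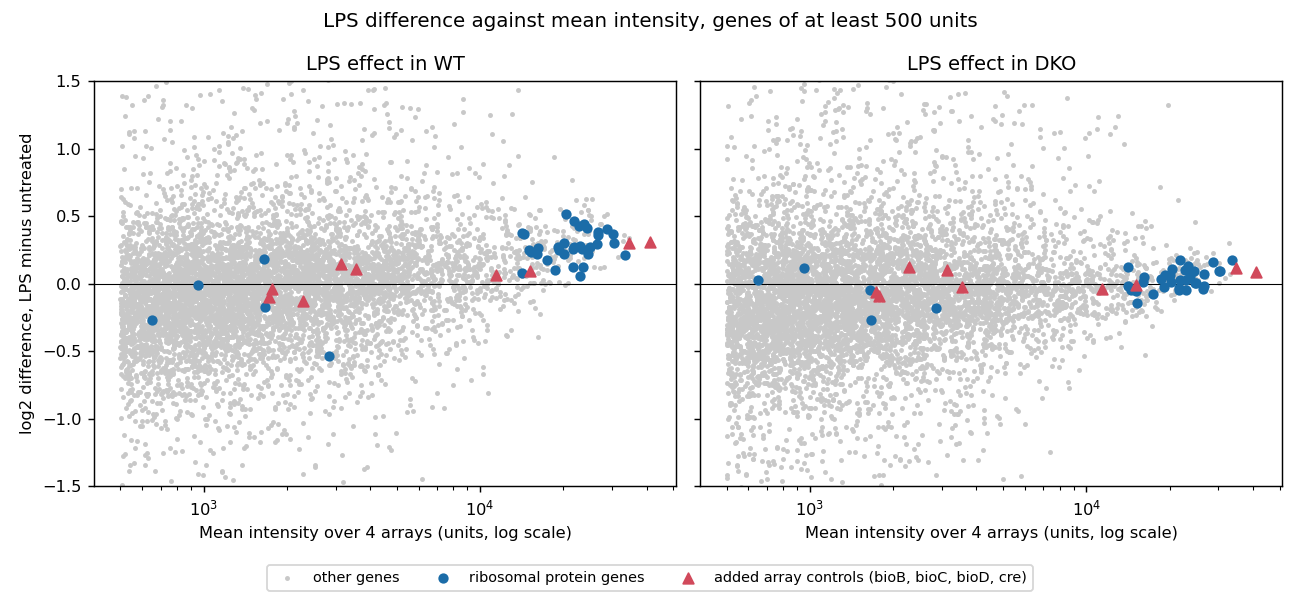
Log2 difference between LPS and untreated arrays against mean intensity over the 4 arrays for genes of at least 500 units, in WT (left) and DKO cells (right), with ribosomal protein genes as circles and added array controls as triangles. Genes beyond 1.5 in either direction lie outside the axes. In WT cells the 34 bright ribosomal protein genes and the cre control lie above 0, as do 260 of the 310 other bright genes, and in DKO cells the bright ribosomal protein genes lie between -0.14 and 0.17.

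What else moved with the WT difference was read from the array controls and from genes of like intensity. The cre transcript, a control of bacteriophage origin that is added to every sample, read 35237, 43617, 41474 and 43964 units with its 3′ probe set, a log2 difference of 0.31 with LPS in WT cells and 0.08 in DKO cells. Its 5′ probe set gave 0.30 and 0.11. The less bright bioD control gave 0.09 and 0.06 in WT cells, bioC, dimmer again, 0.11 and 0.15, and bioB from -0.13 to -0.04. The 3 probe sets for 18S ribosomal RNA, at 7386 to 16615 units on the WT arrays, gave 0.0025 to 0.06. Among genes of 20000 units or more, 23 members had a median WT difference of 0.29 and 55 other genes one of 0.36. Between 15000 and 20000 units the medians were 0.24 for 8 members and 0.26 for 78 other genes, and between 10000 and 15000 units 0.37 for 3 members and 0.17 for 177 others. Array medians over all probe sets were 59.1 units for untreated WT cells and 50.8 to 51.0 for the other arrays. The ratio of 3′ to 5′ signal, a sign of RNA quality, was 1.01 to 1.11 for actin and 0.840 to 0.877 for Gapdh. The part of intensity range, array and scaling in the difference was not tested.

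Rescaling the arrays moved the bright members as a block. Setting array medians equal moved the median of all genes to 0.12, and 240 of the other 310 bright genes were then at least 1.2-fold higher. In that setting the bright members' median WT difference became 0.48 and all 34 were at least 1.2-fold higher. After quantile normalization it was -0.01 with 14 of 34 above 0 and none 1.2-fold higher, and after cyclic loess 0.04 with 1 higher. The other 310 bright genes moved in the same steps, to 0.44, 0.0001 and 0.04. The sign of the bright members' median WT difference therefore held under equal medians and cyclic loess and not under quantile normalization. Under cyclic loess the bright members lay on both sides of 0, from -0.18 in Rps18 to 0.29 in Rps2. Their median there was no further from 0 than that of the other bright genes, 0.04 in both. The difference in DKO cells was 0.04, -0.06 and -0.04 under the same scalings.

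**Figure D3:**
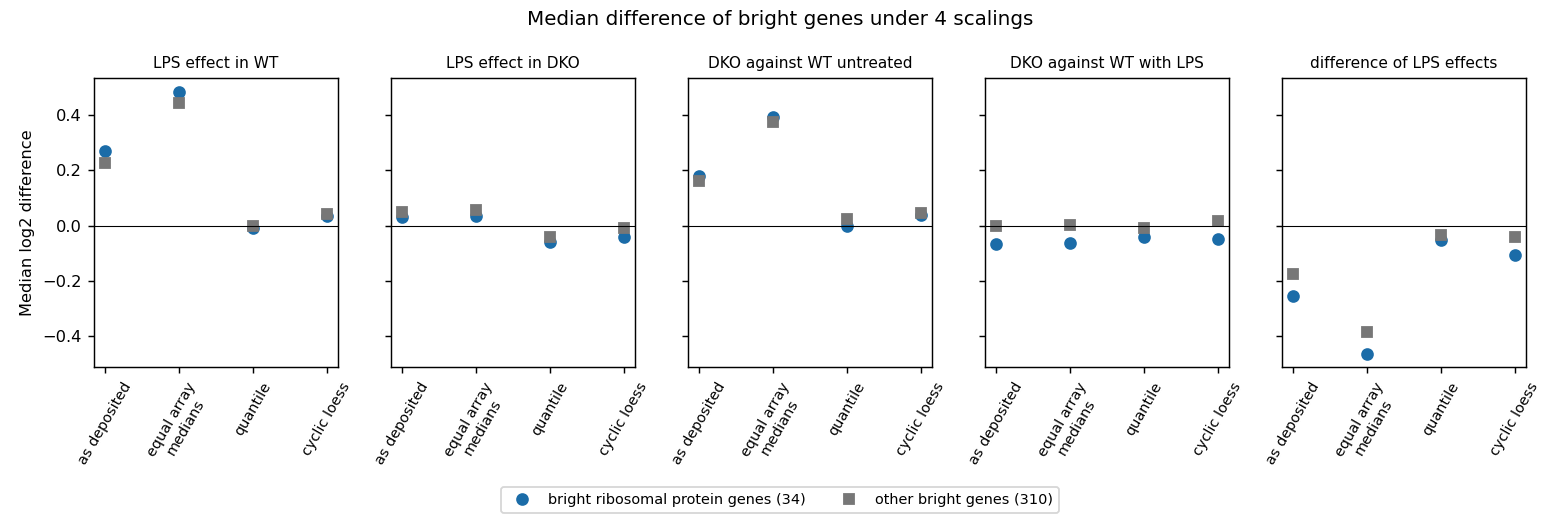
Median log2 difference of the 34 bright ribosomal protein genes (circles) and of 310 other bright genes (squares) in 5 comparisons, for intensities as deposited and after 3 other scalings. Under each scaling the circles and squares lie close together, and the comparisons that use the untreated WT array move most, from 0.27 to 0.48 or -0.01 for LPS in WT cells.

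Untreated DKO cells were compared with untreated WT cells to ask what loss of Hes1 and Hey1 does at rest. The median log2 difference of the 44 members was 0.15, with 7 at least 1.2-fold higher and 3 lower, where 12.7% of all 11379 genes were higher and 19.4% lower, with a median of -0.02. Without the probe set types that can bind several transcripts, and so without most bright readings, 20 members had a median of 0.02. Read by their brightest probe set, all 34 bright members lay above 0, from 0.01 in Rpl11 to 0.33 in Rps2. Of 40 further probe sets of members, 16 had the opposite sign. The bright members' median was 0.18 against 0.16 in the other 310 bright genes, of which 21.9% were at least 1.2-fold higher and 2.26% lower. This comparison uses the same untreated WT array as the LPS comparison in WT cells. With equal medians the bright members' median was 0.39, after quantile normalization -0.002 and after cyclic loess 0.04. No member reached 2-fold, which 0.466% of all genes did upward and 0.984% downward.

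Rps4l was the member furthest apart between the genotypes, at 237 and 264 units in WT cells and 419 and 455 in DKO cells (untreated, then LPS). Both DKO values lay above both WT values, 1.77-fold untreated and 1.72-fold with LPS. The log2 difference was 0.82 to 1.03 untreated and 0.78 to 0.82 with LPS over the deposited values and the 3 rescalings. Rps4l is an autosomal copy of the X-linked small-subunit gene Rps4x, which read 18998, 22890, 22545 and 22971 units on the arrays in turn. Its neighbours on chromosome 6 above the floor differed less, from -0.31 in Caprin2 to 0.27 in Ergic2 untreated and from -0.61 in Sinhcaf to 0.19 in Caprin2 with LPS. Rpl27a was also higher on both DKO arrays, by 0.43 untreated and 0.73 with LPS. Next came Rps2 at 0.33, Rps9 at 0.29 and Rpl41 at 0.27, and the lowest were Rps27 at -0.53, Rpl37 at -0.52, Rpl39 at -0.50, Rpl14 at -0.23 and Rpl12 at -0.21.

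With LPS, the genotypes differed little in ribosomal protein genes. The median over 44 members was -0.06, with 3 at least 1.2-fold higher and 1 lower, against 14.1% and 19.4% of all 11236 genes and a median of -0.04. Of the bright members 27 of 34 lay below 0, between -0.18 and 0.05, with a median of -0.07, where the other 310 bright genes had a median of 0.0003, with 5.81% at least 1.2-fold higher and 3.23% lower. For the bright members this median was -0.06, -0.04 and -0.05 after equal medians, quantile normalization and cyclic loess. No member reached 2-fold, against 0.845% of all genes higher and 0.934% lower. The members that were higher were Rps4l, Rpl27a and Rps27 (0.38), and the member that was lower was Rpl12, a protein at the base of the stalk, at 151, 172, 131 and 131 units (-0.39). Next were Rpl10a at 0.05 and Rpl39 at 0.04 upward, and Rps10 at -0.18, Rpsa at -0.17, Rps3a1 at -0.16 and Rpl37 at -0.16 downward.

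Across the 34 bright members the genotype difference without LPS and that with LPS, which share no array, correlated weakly (Pearson -0.11, Spearman -0.06).

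The difference of the LPS effects, DKO minus WT, had a median of -0.22 over the 44 members, with 4 at least 1.2-fold higher and 16 lower, where 19.7% of all 11828 genes were higher and 20.6% lower, with a median of -0.03. Read by their brightest probe set, all 34 bright members lay below 0, from -0.04 in Rps29 to -0.41 in Rps2 and Rpl8, with a median of -0.25. Further Rps29 probe sets at means of 25609 and 23521 units gave -0.19 and -0.30. The other 310 bright genes had a median of -0.18, with 29.7% at least 1.2-fold lower and 4.84% higher. Under equal medians the bright members' median was -0.46, under quantile normalization -0.05 and under cyclic loess -0.11. No member reached 2-fold, against 1.84% of all genes higher and 0.845% lower. Rpl8, a protein near the peptidyl transferase centre, read 12438, 16033, 14930 and 14476 units. Rps10, a protein at the beak of the small subunit, read 23152, 30102, 26886 and 26572, a difference of effects of -0.40, followed by Rps9 at -0.38 and Rpl41 at -0.35. Other probe sets of these genes above the floor on all arrays did not all go that way. They gave -0.12, -0.51, -0.36 and 1.17 for Rps10, 0.63 and 0.21 for Rps9, and -0.21, 0.14 and -0.10 for Rpl41. For both Rpl8 and Rps10 the LPS value exceeded the untreated one in WT cells and lay just under it in DKO cells.

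At the other end stood dim members. Rps27 had a difference of effects of 0.91, from LPS differences of -0.55 (WT) and 0.35 (DKO). Over the rescalings the WT difference was -0.30 to -0.35 and the DKO difference 0.36 to 0.52, so the signs held, but all 4 values lay between 128 and 187 units, close to the floor, and the difference was not tested. Rpl39 (0.55), Rpl37 (0.36), Rpl27a (0.30) and Rpl14 (0.24) followed. Rps19bp1 read 974, 965, 906 and 981 units, with a difference of effects of 0.13.

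A gene with several probe sets gave a measure of how far 1 reading can be trusted. Of the 46 members 24 had a single probe set. For 18 genes, 40 further probe sets lay above the floor on all arrays, and 12 did not. In the LPS comparison of WT cells these differed from the gene's brightest probe set by a median of 0.23, 12 of 40 by more than 0.5, and 16 had the opposite sign. In the LPS comparison of DKO cells the median was 0.08, with 2 of 40 apart by more than 0.5 and 19 of opposite sign around a value near 0. For the genotypes untreated and with LPS the medians were 0.14 and 0.10, with 6 and 1 apart by more than 0.5. Of the 40, 16 untreated and 14 with LPS had the opposite sign. For the difference of LPS effects the median was 0.15, with 7 apart by more than 0.5 and 14 of opposite sign.

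Rps10 spanned the widest range. Of its further probe sets 1 read 7056, 2062, 3905 and 2574 units, an LPS difference of -1.77 in WT and -0.60 in DKO cells, while its other 3 gave 0.11 to 0.52 in WT cells. Rps9 had a probe set at 11500, 7060, 8256 and 7840 units (-0.70 in WT cells) and another at 249, 438, 236 and 479 (0.82 in WT, 1.02 in DKO cells), against 0.23 for its brightest. Rpl27 had a pair at 10296, 7195, 8365 and 7892 and at 8026, 5280, 6209 and 6031, with WT differences of -0.52 and -0.60 against 0.18. Rpl13a had 1 at 5786, 4163, 4430 and 4036 (-0.47), and Rps20 1 at 100, 66.5, 96.5 and 81.8 (-0.59). Probe sets of Rpl22, Rpl41, Rps24 and Rps3 also stood more than 0.5 from the brightest in the WT comparison. In Rps10, Rps9, Rpl27 and Rpl13a the diverging probe sets under 10000 units, other than the dimmest of Rps9, were highest on the untreated WT array. By the suffix of their names, 38 of the 98 probe sets are of the type that can bind unrelated transcripts, 3 of the type shared between transcripts of several genes and 26 of the type shared between transcripts of 1 gene. Ribosomal protein genes have many processed pseudogenes, and what share of a signal comes from such copies was not tested.

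**Figure D4:**
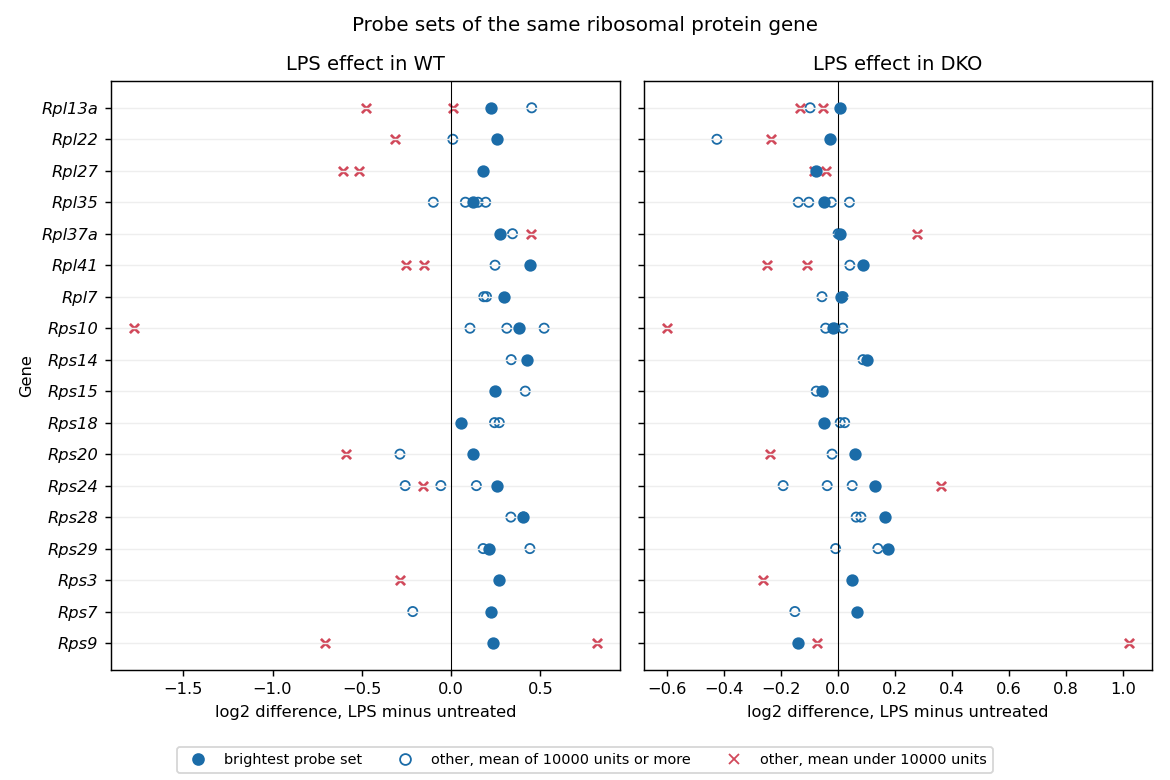
Log2 difference between LPS and untreated arrays for each probe set that exceeded the floor on every array, in the 18 genes with more than 1, for WT (left) and DKO cells (right). Filled circles are the brightest probe set of a gene, open circles others of at least 10000 units and crosses others under that level. In WT cells 12 of the 14 crosses lie to the left of their gene's filled circle, down to -1.77 in Rps10.

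Ribosomal proteins were also read by probe sets that list several genes, from which no gene can be named. There were 110, which name 46 symbols of the family, 31 of them without a probe set of their own. Of these, 98 lay above the floor on all arrays and 74 at 10000 units or more. The latter had median differences of 0.29 for LPS in WT cells, 0.04 for LPS in DKO cells, 0.20 between untreated genotypes, -0.05 between the genotypes with LPS and -0.24 for the difference of LPS effects. In WT cells 42 of the 74 were at least 1.2-fold higher with LPS and 0 lower.

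Of the 4 paralogs that the naming rule left out, Rpl39l and Rpl22l1 stood further apart between the genotypes than any bright member. Rpl39l, a testis-enriched copy of Rpl39, read 119 and 116 units in WT cells and 10.5 and 15.7 in DKO cells (untreated, then LPS). It was under the floor on both DKO arrays, so it was at least 2.25-fold lower untreated and at least 2.19-fold lower with LPS. Rpl22l1, a paralog that can replace Rpl22, read 8367 and 8725 in WT cells and 13357 and 11428 in DKO cells, a log2 difference of 0.67 untreated and 0.39 with LPS, where Rpl22 gave 0.13 and -0.16. Over the rescalings Rpl22l1 gave 0.58 to 0.89 untreated and 0.35 to 0.41 with LPS. Rpl39l lies on the same chromosome as Hes1 and Rpl22l1 on that of Hey1, and the part of linked sequence in these differences was not tested. Rpl7l1, a nucleolar paralog of Rpl7, read 1937, 2495, 2064 and 2685 units on the arrays in turn, higher with LPS in both genotypes (0.37 and 0.38). Rps27l, a p53-responsive paralog of Rps27, read 12835, 13208, 14659 and 13123.

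**Figure D5:**
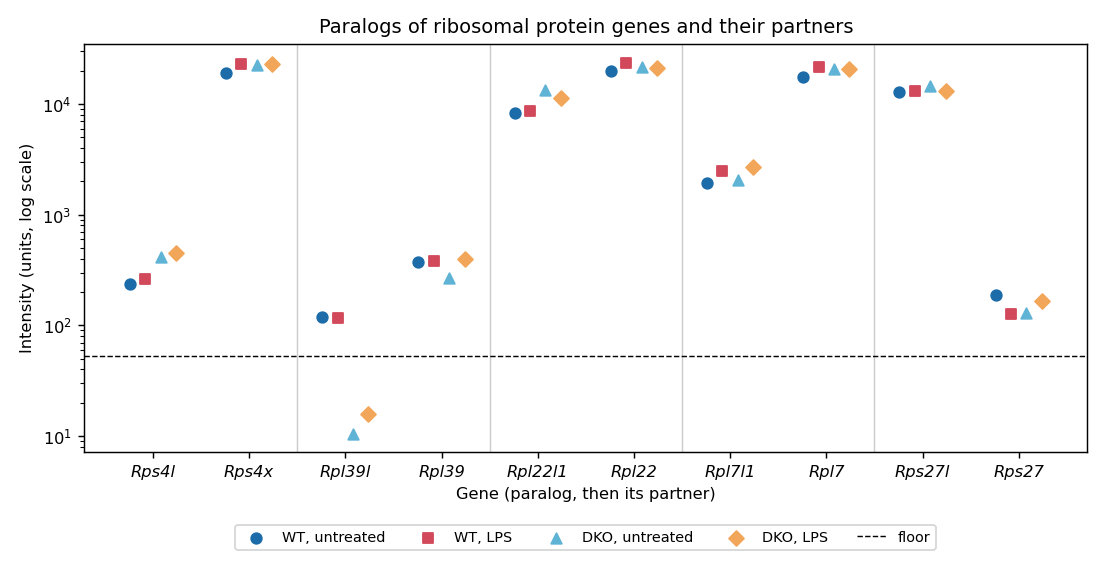
Intensity on each of the 4 arrays, on a log axis, for 5 paralogs and the canonical gene beside each, with the floor of 52.9 units as a dashed line. Within a gene, both DKO values of Rps4l and Rpl22l1 lie above both WT values, and those of Rpl39l lie under the floor.

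Genes that build ribosomes were read from a list of known biogenesis factors. Of 58 listed biogenesis factors 56 were measured, with a median LPS difference of 0.21 in WT cells (23 at least 1.2-fold higher, 3 lower, against 18% and 32.9% of all genes) and 0.13 in DKO cells (19 and 7, against 19.1% and 34.7%). The largest were Bysl (1.12 in WT), which acts on small-subunit precursors, Rcl1 (0.88 in WT and 1.05 in DKO), which processes ribosomal RNA, and Rrs1 (0.84 and 1.78), which joins the 5S particle to large-subunit precursors. Under the 3 rescalings the medians stayed above 0, at 0.26 to 0.42 in WT and 0.14 to 0.25 in DKO cells. In DKO against WT cells the median was -0.14 untreated (3 higher, 16 lower, against 12.7% and 19.4% of all genes) and -0.18 with LPS (1 higher, 22 lower, against 14.1% and 19.4%). Untreated, Tsr1 (-0.52), Nop58 (-0.51) and Nolc1 (-0.50) were furthest, and with LPS Rrp1b (-0.62), Bysl (-0.59) and Gnl3 (-0.58). With LPS the median stayed between -0.18 and -0.14 under the rescalings, and untreated it became 0.07 with equal medians, with 39 of 56 above 0. The all-gene median between untreated genotypes stood at 0.19 in that setting.

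Other parts of the translation machinery were read in the same way, with counts at 1.2-fold to be set against 18% of all genes higher and 32.9% lower with LPS in WT cells and 19.1% and 34.7% in DKO cells. Of a list of 8 elongation factors and related genes 7 were measured, with a median LPS difference of 0.39 in WT (4 higher, 0 lower) and 0.14 in DKO cells (1 higher, 0 lower). Tpt1, a transcript with a pyrimidine tract of its own, gave 0.51 and 0.23, Eef1a1 0.44 and 0.14, and Eef1e1, a scaffold protein of tRNA synthetases, 0.79 and 0.76. Tpt1 and Eef1e1, both among the 4 higher in WT cells, are not elongation factors themselves. Of 36 initiation factors 31 were measured, with medians of 0.07 (9 higher, 0 lower) and 0.04 (4 higher, 2 lower). Eif6, which keeps the subunits apart, gave 0.83 and 0.80 and Eif4e, the cap-binding protein, 0.55 and 0.77. The 76 mitochondrial ribosomal proteins had medians of 0.03 (7 higher, 11 lower) and -0.09 (7 higher, 19 lower). With equal array medians the WT values became 0.24 with 31 higher and 6 lower for these. For the initiation factors they became 0.28 with 18 higher and 0 lower. The shares of all genes given above belong to the deposited values and are no background for these counts. In this setting the all-gene WT median itself stood at 0.12, against -0.09 as deposited. The initiation factors' DKO median was -0.04 after quantile normalization. For 15 genes of RNA polymerase I, which transcribes ribosomal RNA, and its factors, the medians were -0.27 (2 higher, 8 lower) and -0.16 (0 higher, 5 lower). WT differences in that list ran from -0.56 in Polr1e to 0.56. For 22 of 26 genes of mTOR signalling and control of translation the medians were -0.07 (5 higher, 7 lower) and -0.19 (4 higher, 9 lower). Eef2k, the inhibitory kinase of elongation factor 2, gave -1.22 and -1.18. Myc, an activator of ribosomal genes, gave 0.98 in WT cells, where the largest rise in the list was 1.05. Over the 3 rescalings the medians of the list of elongation factors and related genes stayed above 0, at 0.11 to 0.60 in WT and 0.01 to 0.15 in DKO cells. The polymerase I genes' medians shrank to between -0.08 and -0.03 in WT cells and were -0.15, -0.03 and 0.0041 in DKO cells, and the WT median of the mTOR list became 0.15 with equal medians.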

How the data were processed

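Per the labels' protocols, total RNA was purified on columns, amplified, labelled with biotin and hybridised to 1 array per sample. The authors' deposited intensity table holds 1 linear intensity per probe set and array. From the values, each array's mean after trimming 2% at either end was 500.0. The processing software is not named in those protocols (not given in the sources used here). How far a small difference depends on the scaling was read by rescaling the arrays.

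The 64 control probe sets were kept apart. Of the others 34945 listed 1 gene, 932 several and 9160 none, and 34741 symbols were updated through a RefSeq table of GRCm38.p6. Each gene was read by its brightest probe set, judged on the mean of all arrays. Values under 52.9 units, the median of all probe sets, were set to that floor before log2. Each comparison is a log2 difference of 2 arrays, counted at 1.2-fold and 2-fold, with no test. Where both arrays lay under the floor, no difference was formed. The forming of log2 differences was tested on simulated arrays with changes of 1.5-fold or more. The choice of probe set, the rescalings and differences as small as 1.2-fold were not tested in this way.

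The members, lists and alternatives were chosen with earlier results of these data known. The text names the 5 members furthest in either direction per comparison, members under the floor, the stalk genes, the 4 brightest and 4 dimmest, members with probe sets over 0.5 apart, members of named roles, and up to 3 genes furthest per list. The neighbours of Rps4l, the members at the ends of the relative ranges and the single probe sets were named after their values were seen. Protein features were not analysed here. Alternatives were equal array medians, quantile normalization and cyclic loess (limma 3.58.1 in R 4.3.3), a median across probe sets per gene, probe set types shared between transcripts left out, an offset of 16 units without a floor, and 1.5-fold. Python 3.11.15, numpy 2.4.6 and pandas 2.3.3 did the rest.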

Additional observations from a re-analysis of the deposited data

Results flagged for a closer look

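Rps27 read lower with LPS in WT cells (log2 difference of -0.55) and higher in DKO cells (0.35). It stood out because the single arrays moved in opposite directions in the genotypes, and the difference was not tested.

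Signal of the family also came from probe sets outside the comparisons of single genes, since 98 probe sets that list several genes lay above the floor on all arrays.

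The middle probe set for 18S ribosomal RNA, a control outside the gene comparisons, read 11654 units (WT untreated), 11675 (WT LPS), 16976 (DKO untreated) and 19277 (DKO LPS). Both DKO values lay above both WT values, 1.46-fold untreated and 1.65-fold with LPS, in RNA that had been amplified before labelling.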

How the results depend on the processing

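Of 130 values for the members (44 in most settings) under other settings, 85 stayed within a set spread and 45 did not. For medians this was the spread between probe sets (0.26 for LPS in WT cells), and for counts 1.5 times. Each deposited median was itself smaller than the spread for its comparison. A median that fell to 0 would therefore count as within it, and staying within it does not show that a difference held. Counts are of members at least 1.2-fold higher or lower. The median for LPS in WT cells, 0.25 as deposited, became 0.46 with equal array medians, -0.0089 after quantile normalization and 0.036 after cyclic loess, a change of sign within that spread for the quantile setting. With equal array medians, LPS in WT cells gave 37 higher and 2 lower, LPS in DKO cells 0 lower, the untreated genotypes 37 higher with a median of 0.36, and the difference of LPS effects 2 higher and 36 lower. After quantile normalization the same comparisons gave 2 higher, 0 lower, 2 higher and 1 lower, and after cyclic loess 3 higher with 2 lower, 0 lower, 2 higher and 2 lower. With equal array medians, 240 of the 310 other bright genes were also higher with LPS in WT cells. In that setting 240 of them were higher between untreated genotypes and 225 lower for the difference of LPS effects. With a median across probe sets per gene, 2 were lower with LPS in DKO cells, 5 between untreated genotypes and 2 between genotypes with LPS. Without shared probe set types, 20 to 22 members were left, and most bright readings were lost. Their medians were 0.030 for LPS in WT cells and 0.017 between untreated genotypes. Counts were 6 higher for LPS in WT cells, 4 higher and 3 lower for LPS in DKO cells, 3 higher between untreated genotypes, 4 lower with LPS and 6 lower for the difference of effects. At 1.5-fold only Rps4l was higher between untreated genotypes (1) and Rps27 for the difference of effects (1), 2 members stayed higher between the genotypes with LPS (Rps4l and Rpl27a), and the other counts were 0. Chosen after seeing the data, the 34 bright members alone gave 0 lower for LPS in WT cells, 0 in either direction for LPS in DKO cells and between genotypes with LPS, 0 lower between untreated genotypes and 0 higher for the difference. Also chosen after seeing the data, values relative to the other bright genes gave 1 higher for LPS in WT cells, 2 higher and 6 lower between untreated genotypes and 0 lower for the difference. The cause was not tested. An offset in place of the floor moved none of the 15 values. No paired analysis was possible because each group has 1 array, and for the same reason no array could be left out in turn. Signal near the floor limits the dim members, and intensity near the top of the range limits small differences of the bright ones.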
